A study of Anopheles gambiae with 104 samples.

Results

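These results describe 121 probe sets whose signal in heads of the malaria mosquito Anopheles gambiae followed a strong daily rhythm with its peak in the light hours, and whose signal in bodies did not meet the same definition. They are 121 of the 16884 Anopheles probe sets on the array, and 121 of the 519 with a strong rhythm in heads. A cosine curve with a period of 24 h was fitted to each probe set in each tissue and light regime. A rhythm was called strong where the amplitude, the distance from the fitted mean to the fitted peak, was at least 0.5 on the log2 scale, the curve accounted for at least 0.7 of the variance between time points (R2) and the mean log2 value was at least 4. The 121 were strong in heads under a light:dark cycle (LD), were not strong in bodies in LD, and had a fitted peak from zeitgeber time (ZT) 2 to under ZT10. The members were thus chosen by the LD values of both tissues, and those values are given as a description with no test. The samples kept in constant dark (DD) were not used in the choice, and all tests below are on DD.

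The study measured total RNA of mated females of the Pimperena strain (S form) that had taken no blood meal and were 7 to 9 days old at the start. Heads in DD, heads in LD, bodies in DD and bodies in LD each contributed 26 arrays, 2 at each of 13 time points 4 h apart. Heads carried mouthparts and antennae, bodies their appendages, and each time point was a pool of 20 to 30 mosquitoes whose heads and bodies were separated. DD collections ran from circadian time (CT) 0, subjective dawn carried over from the preceding cycle, to CT48, and LD collections from ZT12, when the lights went off, to ZT60. The LD cycle had 11 h of full light with 1 h transitions at dawn and dusk. The series asked which transcripts follow a daily rhythm with light as a cue and which keep it in constant dark. Nothing in the labels says that the 2 arrays were made from different pools, and the spread between them may be technical.

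In the fruit fly the circadian clock is a feedback loop in which the proteins of the period and timeless genes enter the nucleus and repress the transcription factors, Clock and cycle, that drive those genes. Whether the same proteins act as repressors in Anopheles gambiae was not examined here. The loop runs in clock neurons of the brain and also in peripheral organs such as the compound eyes and antennae, both of which belong to the head samples, and light resets it through the breakdown of timeless. A rhythm seen in LD can be driven by the clock or directly by light and dark, and a rhythm that lasts in constant dark does not need the light cycle. Anopheles gambiae flies and bites at night, and the light hours are its time of rest. No table used here gives the genes behind the probe sets, and 0 of the 121 names matched an identifier in the gene table used here. Members are therefore given by probe set ID, without a role, and lists of clock, visual, olfactory or cell type genes could not be counted.

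The gap between 3′ and 5′ signal of control transcripts differed between DD and LD. For the control transcript Gapdh, a glycolytic enzyme, the 3′ signal exceeded the 5′ signal by 4.40 ± 0.97 on the log2 scale in heads in DD and by 2.59 ± 0.20 in heads in LD (SD over 13 time points each). This gap is commonly read as a sign of RNA quality. The gap of the control dap was larger in DD as well, at 2.73 ± 0.23 against 1.51 ± 0.20 in LD in heads. In bodies the dap gap was 2.19 ± 0.32 in DD and 0.87 ± 0.27 in LD. Whether the quality of the mosquito RNA differed between the regimes was not tested. In heads in DD the time point CT44 stood apart, with a Gapdh gap of 7.54 against 4.51 at the next highest time point, and the actin gap was likewise highest there, at 5.16. Over 24 h the actin gap in heads in DD followed a curve with an amplitude of 0.57, its peak at 19.9 h and an R2 of 0.43, and without CT44 these values were 0.30, 20.3 h and 0.54. The part of these shifts in the DD results was not tested.

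In heads in LD the 121 probe sets were high through the light hours and low through the dark hours. Their amplitude had a median of 0.74 (range 0.50 to 2.38), which corresponds to a median of 2.80-fold from the fitted trough to the fitted peak (range 2.00 to 26.9). An amplitude of at least 1 was reached by 29. Measured rather than fitted, the highest hour of the day was 4 h after dawn for 55 members, 8 h for 50, dawn itself for 11 and 12 h for 5. The lowest hour was 12 h for 43, 20 h for 32, 16 h for 31 and 0 h for 15. Fitted peaks from replicate 1 alone and from replicate 2 alone lay a median of 0.247 h apart, at most 1.58 h. The peaks gathered at both ends of the window, with 51 members from ZT2 to under ZT4, 20 to under ZT6, 17 to under ZT8 and 33 to under ZT10. At the thresholds, the members just inside had an amplitude of 0.50, an R2 of 0.701, a mean of 4.00, and peaks at 2.02 and 9.99 h. The probe sets just outside had 0.499, 0.696, 3.95, 1.99 h and 10.01 h.

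**Figure D1:**
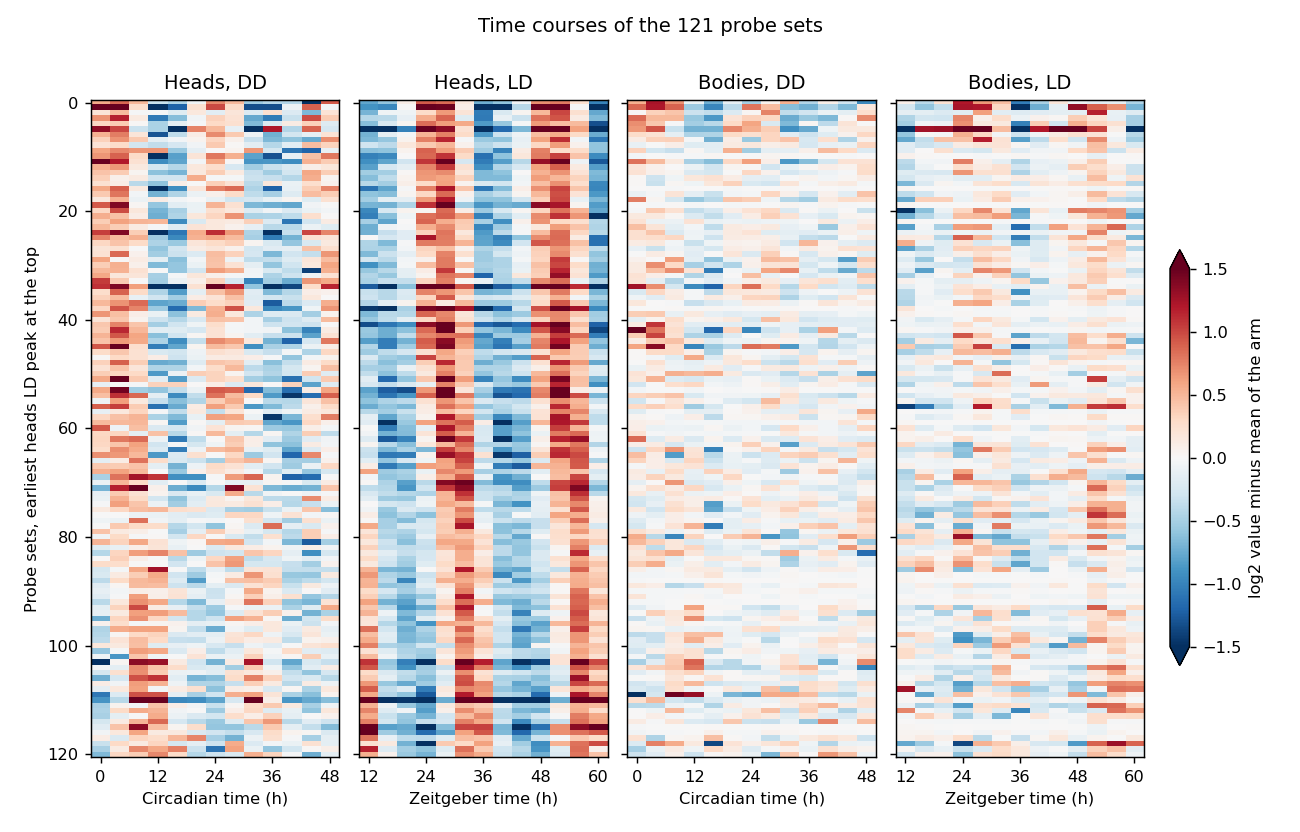
Time courses of the 121 probe sets (rows, sorted by fitted peak in heads in LD), each colour the mean log2 value of 2 arrays minus the mean of that probe set in that arm, from blue (lower) to red (higher). Columns are 13 time points in h, circadian time for DD and zeitgeber time for LD. Heads in LD show the day peaks that chose the members, heads in DD show a fainter band on the first day and a fainter one still on the second, and bodies show little pattern in most rows.

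All 121 fell short of the definition of a strong rhythm in bodies because the rule asked for it, which does not show that bodies had no rhythm. The body LD signal failed the definition by its mean in 31 members (means 1.92 to 3.49), by its amplitude in 72 (0.03 to 0.48) and by R2 alone in 18. Of the 72, 9 had a body R2 of at least 0.7, with amplitudes of 0.22 to 0.48. The 18 had body amplitudes of 0.51 to 3.02 in LD, a fitted 2.02-fold to 65.7-fold change over the day, with R2 from 0.408 to 0.692. In 16 of the 18 the body peak lay within 4 h of the head peak in LD. For these members the data go against a head-only rhythm in LD, and the whole group is called here the day-peaking head probe sets. In bulk samples of a tissue, fewer cells of a type and less RNA per cell cannot be told apart.

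The test in heads was run where a probe set's mean over all head arrays exceeded 3.75, a level that 95% of the probe sets for P. falciparum, a parasite taken up with blood that these females had not fed on, stayed under. Of the 118 members that passed this filter on low means, 62 had a rhythm in heads in DD (52.5%), where 8.92% of the 7188 probe sets tested in heads did. The other 56 were not called by limma's F-test at a Benjamini-Hochberg adjusted p under 0.05. At an unadjusted 0.05, 92 of the 118 passed, which cannot be set against the 8.92%, a share at the adjusted threshold. Among called members the fitted peak stood a median of 2.39-fold above the fitted trough (range 1.46 to 10.4). The share was 59.6% (165 of 277) among probe sets with a strong rhythm in heads alone at other hours and 51.4% (19 of 37) among those strong in both tissues with a day peak in heads, and the differences between these shares were not tested. Without CT44 the count was 69 of the members, and it lay between 45 and 69 when 1 replicate or 1 time point was left out. These counts stand without the share over all probe sets in the same setting, and cannot be set against the 8.92%.

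The rhythm of most members was flatter in DD than in LD. Over all 121 the head amplitude had a median of 0.45 in DD, against 0.74 in LD, and the ratio of DD to LD had a median of 0.568. Only 10 members had the larger amplitude in DD. Among the 62 called members the ratio had a median of 0.741. Amplitudes in LD were chosen to be large, which by itself lowers this ratio, and no test was made. At the time points, the median member stood 0.39 above its own mean at CT4 and 0.37 above at CT8, and 0.29 below at CT16. On the second day it stood 0.16 above at CT28, 0.09 below at CT32 and 0.35 below at CT40.

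**Figure D2:**
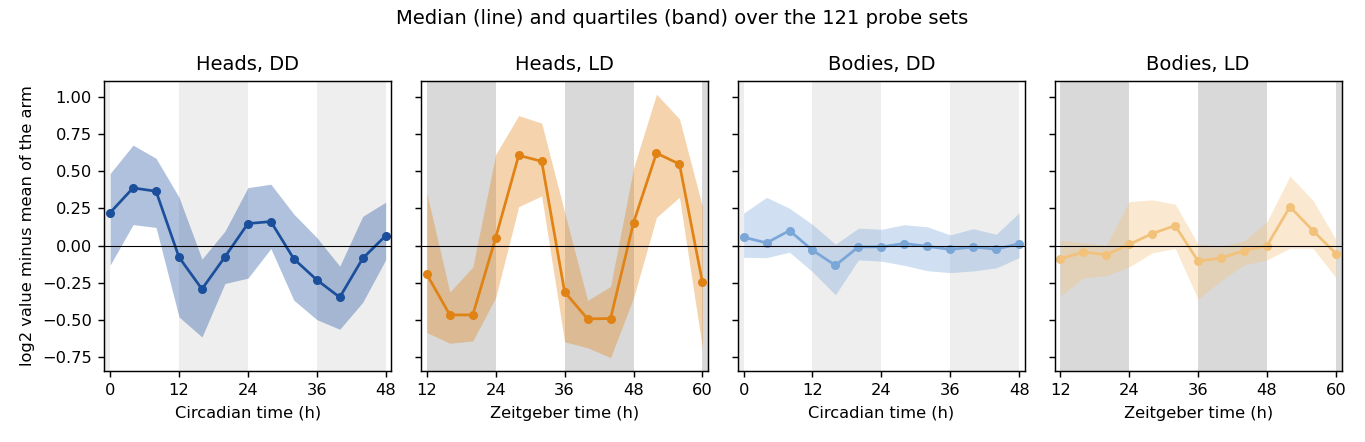
Median (line and points) and quartiles (band) over the 121 probe sets of the log2 value minus the mean of each arm, against circadian time (DD) or zeitgeber time (LD) in h; darker grey marks the dark hours of LD and lighter grey the subjective night of DD. Medians in heads in LD stood near 0.6 above the mean at ZT28, ZT32, ZT52 and ZT56, heads in DD reached 0.39 at CT4 and 0.16 at CT28, and bodies in DD stayed between -0.13 and 0.10.

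The afternoon level of the first day in DD was not reached again on the second. At CT32, 49 of the 121 members lay above their own mean, against 104 at CT8, which is the same hour of the day before. The CT32 minus CT8 difference had a median of -0.40 on the log2 scale (quartiles -0.65 and -0.20), and 108 of the 121 members were lower at CT32, 90 of them on both replicates. Over all 7188 probe sets tested in heads the median difference was -0.11, and 65.0% were lower at CT32. The drop had a median of -0.52 in the 71 members with an LD peak before ZT6 and -0.27 in the 50 with a later one. In LD the same hours a day apart, ZT56 minus ZT32, differed by a median of 0.01, with 51 of 121 members lower on the later day. Each DD time point was collected once, so a difference between days and one between the pools of CT8 and CT32 cannot be told apart.

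Among called members, Ag.3L.479.0_CDS_at had the largest amplitude in heads in DD. Its log2 values ran from 3.95 over a median of 6.52 to 7.91 on the 26 arrays of heads in DD, and from 3.83 over 5.46 to 7.80 in heads in LD. In DD all 6 arrays of subjective dawn (CT0, CT24 and CT48) read 7.16 to 7.91, and the 4 arrays of CT12 and CT36 read 3.95 to 4.96, so dawn and dusk did not overlap. In LD the same hours read 7.56 to 7.80 and 4.25 to 4.78. The fitted amplitude was 1.69 in DD, a 10.4-fold range, with its peak at 1.80 h (limma's F-test, adjusted p = 0.000129), against 1.97 with its peak at 3.14 h in LD. Its mean in bodies was too low to be tested there. The heads minus bodies rhythm in DD had an amplitude of 1.07 with its peak at 1.97 h (limma's F-test, adjusted p = 0.0221). This is smaller than the 1.69 in heads, so the body values, though low, were not flat in the fit.

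Ag.2L.658.0_CDS_a_at had the next largest rhythm in DD by the same ranking, and it was stronger there than in LD. Its values ran from 5.87 over a median of 9.38 to 10.28 in heads in DD, and from 9.55 over 10.40 to 11.26 in heads in LD. The 4 arrays at CT12 and CT36 read 5.87 to 6.73, while the 6 arrays at lights off in LD read 9.55 to 10.16, so the dusk trough was deeper in DD and the peaks were closer, at 9.43 to 10.28 at subjective hour 4 against 11.20 to 11.26 in LD. The amplitude was 1.52 in DD (adjusted p = 0.00262 by limma's F-test) and 0.69 in LD, a ratio of 2.22, the largest of the 121. In bodies the probe set read 2.61 to 3.38 in DD and 2.60 to 3.93 in LD, with medians of 2.75 and 2.72 that lie below the corresponding filter in bodies (3.78).

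Ag.2R.1155.0_CDS_at, the member with the second largest amplitude in LD, had a narrow peak in the afternoon. In heads in DD its values ran from 4.57 over a median of 5.04 to 8.44, and in heads in LD from 4.61 over 5.40 to 9.14. The 4 arrays at subjective hour 8 read 7.37 to 8.44 in DD and those at hour 8 in LD read 8.43 to 9.14, whereas hour 16 read 4.57 to 4.84 in DD and 4.77 to 4.88 in LD. The groups of arrays at hours 8 and 16 did not overlap in either regime. At hour 12 the DD arrays spread from 5.66 to 7.82 between the days, while the LD arrays stayed at 7.96 to 8.65. The rhythm passed the test in heads in DD, with an amplitude of 1.45 and a peak at 8.88 h (limma, adjusted p = 0.00906), against 2.20 and 9.49 h in LD.

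Other strong LD rhythms had no detectable counterpart in DD. Ag.2L.38.0_CDS_a_at read 3.58 to 5.11 (median 3.91) in heads in DD, and 3.46 to 6.06 (median 4.07) in heads in LD, where hours 4 and 8 gave 4.89 to 6.06 and hour 20 gave 3.46 to 3.71. Its amplitude was 0.14 in DD (adjusted p = 0.469, limma's F-test) and 1.17 in LD. The DD arrays of hours 4, 8 and 20 overlapped, at 3.77 to 5.11, 3.76 to 4.53 and 3.75 to 3.83. This probe set was higher in bodies, and heads minus bodies in DD was -3.16. Its body time points in LD read 7.81 at ZT28 and 7.82 at ZT52, over 6.85 at ZT20 and 7.02 at ZT44. In bodies in DD it was not called (adjusted p = 0.584, limma's F-test). Ag.2R.253.0_CDS_s_at read 3.19 to 4.89 (median 3.98) in heads in DD and 4.15 to 7.22 (median 4.81) in heads in LD, with amplitudes of 0.21 (adjusted p = 0.269, limma's F-test) and 1.14. Both medians in heads in DD lay close to the filter level of 3.75.

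Ag.2R.628.0_CDS_at had the largest LD rhythm of the 121 in heads, and it was high and rhythmic in bodies as well. In heads its values ran from 2.54 over a median of 5.10 to 6.63 in DD, and from 2.15 over 3.84 to 8.00 in LD. The LD arrays read 7.04 to 8.00 at dawn and 2.15 to 2.88 at lights off, while the DD arrays of the same hours overlapped, at 4.43 to 6.38 and 4.54 to 6.63. The head amplitude was 0.67 in DD (adjusted p = 0.437, limma's F-test) and 2.38 in LD. In bodies the values ran from 10.75 to 12.66 in DD and from 2.91 to 11.16 in LD, and in LD the body arrays at ZT12, ZT36 and ZT60 (2.91 to 4.99) lay below all other body arrays (8.53 to 11.16). The rhythm in bodies in DD passed the test, with an amplitude of 0.71 and a peak at 23.99 h (limma, adjusted p = 0.0113, and 0.0535 with no filter on low means), and the test of a difference in rhythm between heads and bodies in DD did not (adjusted p = 0.962). Among the probe sets tested in heads, those whose 13 DD time points were most alike to it were Ag.UNKN.2338.0_s_at (Pearson r of 0.872) and Ag.2R.946.0_CDS_at (0.861), neither of them a member.

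**Figure D3:**
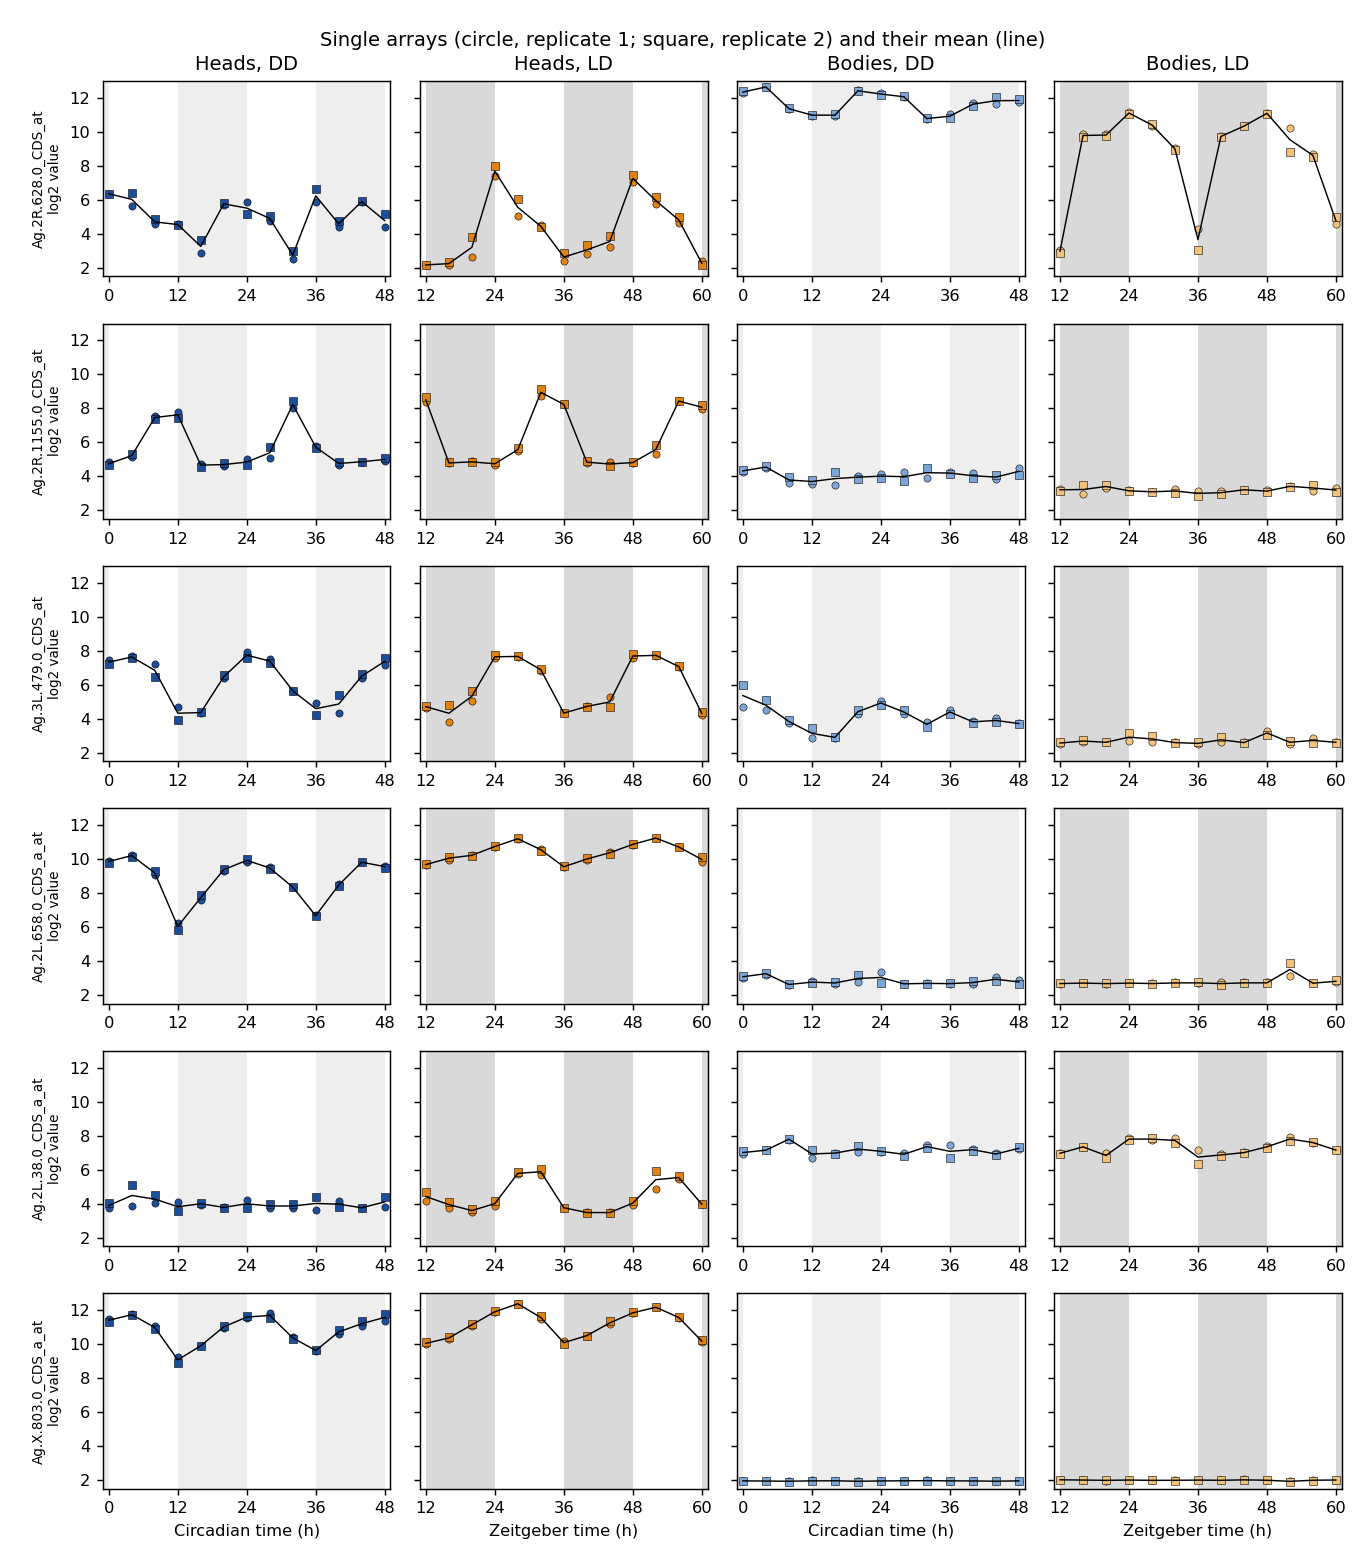
Log2 values of 6 probe sets on single arrays (circles, replicate 1; squares, replicate 2) and their mean (line) against circadian time (DD) or zeitgeber time (LD) in h, for heads and bodies; darker grey marks the dark hours of LD and lighter grey the subjective night of DD. Ag.3L.479.0_CDS_at, Ag.2L.658.0_CDS_a_at, Ag.2R.1155.0_CDS_at and Ag.X.803.0_CDS_a_at rise and fall in heads in both regimes, Ag.2L.38.0_CDS_a_at is flat in heads in DD, and Ag.2R.628.0_CDS_at drops at lights off in bodies in LD.

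Peaks in DD stayed near those in LD and tended to come earlier. All 62 called members had a DD peak within 4 h of the LD peak, 48 of them within 2 h, and 45 of the 56 members tested and not called also lay within 4 h. The DD minus LD difference had a median of -0.95 h (quartiles -1.57 and 0.00 h, range -3.75 to 3.77 h), with 46 members earlier and 16 later in DD. No such value over other probe sets is given here, so the shift is not shown to be particular to these members. Called members' peaks from replicate 1 alone and replicate 2 alone in DD lay a median of 0.384 h apart. By LD peak, the median shift was -1.34 h (range -3.75 to 3.77 h) for the 33 called members from ZT2 to under ZT4 and -1.19 h (-3.23 to 1.79 h) for 12 to under ZT6. It was -0.25 h (-0.80 to 2.11 h) for 4 to under ZT8 and 0.03 h (-1.41 to 2.30 h) for 13 to under ZT10. These ranges overlap, and the difference between windows was not tested. Of the members tested, 67.3%, 60%, 25% and 39.4% were called in these windows, which were set after the peaks were seen.

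**Figure D4:**
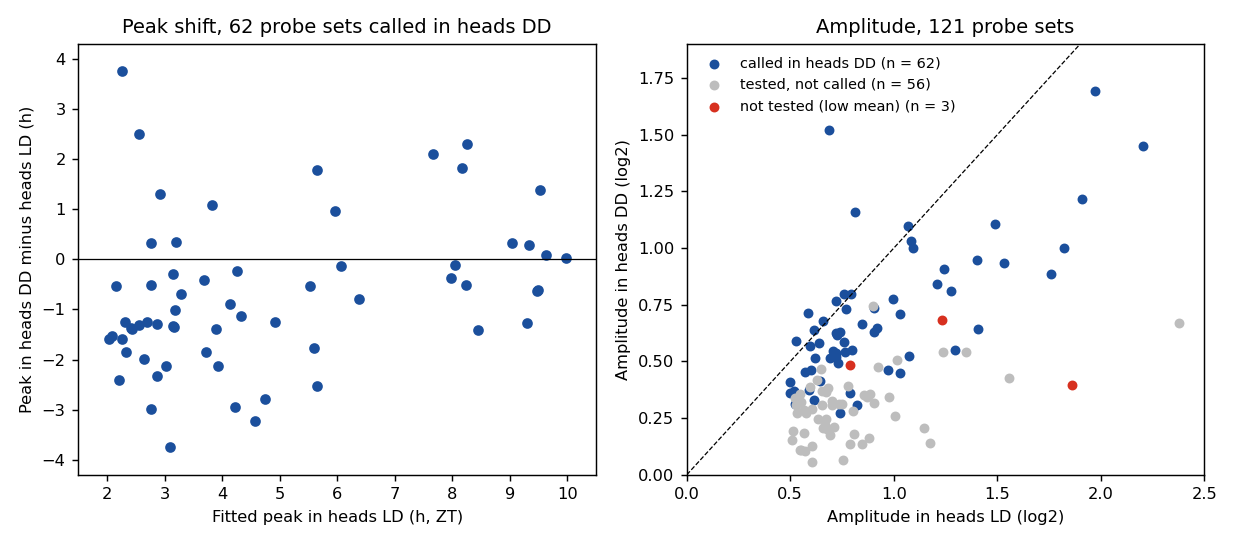
Left, fitted peak in heads in DD minus that in heads in LD (h) against the LD peak (h, ZT) for the 62 members called in DD; right, fitted amplitude in heads in DD against that in heads in LD (log2) for all 121, with the line of equal amplitude. Of the 62 points on the left 46 lie below 0, and of the 121 on the right 10 lie above the line.

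Within DD the peaks also came earlier on the second day than on the first. Fitted day by day, the second-day peak minus the first-day peak had a median of -1.64 h over the 62 called members, and 55 of the 62 were earlier. The second-day amplitude was a median of 0.882 of the first, and smaller in 45 of 62. Over all 641 probe sets called in heads in DD the shift was -1.60 h, with 546 of 641 earlier, so it was not particular to the day-peaking head probe sets. In heads in LD the second day differed from the first by a median of -0.04 h over the 121. Without CT20 and CT44 the DD shift was -1.86 h (57 of 62 earlier), and with the days divided at CT4 it was -1.60 h (56 of 62 earlier). Both of these were chosen after seeing the data.

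In bodies in DD few members had a rhythm. Of the 92 that passed the filter in bodies, 17 were called by limma's F-test (18.5%, against 6.69% of the 7325 probe sets tested in bodies), and 29 members had too low a mean to be tested. The fitted range was a median of 2.01-fold (1.36 to 3.86). Of the 17, 13 were called in heads as well, and in 12 of those 13 both peaks lay within 4 h. The other 4 were Ag.2R.628.0_CDS_at, Ag.3R.1457.0_CDS_at, Ag.2L.550.0_UTR_at and Ag.3R.797.0_CDS_at, of which the last 3 are named for this count after their values were seen. Of the 18 members that failed in bodies in LD by R2 alone, 6 were among the 17. The count fell to 11 without replicate 1 and to 9 without replicate 2, and it was 7 with no filter on low means. As the share over all probe sets in those settings is not given, they cannot be set against the 6.69%.

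The rhythm differed between heads and bodies in DD for 38 of the 118 members tested (32.2%), where 4.08% of all 8438 probe sets tested did (limma's F-test on head minus body differences at the 13 time points). Of the 38, 34 were called in heads and 16 passed the filter through heads alone, where the rule made them high, so that the direction of their difference is no result. The other 22 came from the 92 members with enough signal to be tested in bodies, and the amplitude was larger in heads in 22 of 22. Since members were chosen as strong in heads and not in bodies, the choice favoured that direction in part. In 14 of the 38 the mean in bodies in DD was under 4, the minimum that a strong rhythm was defined with. The other 28 members called in heads were not called for the difference, which does not show that heads and bodies moved alike. The share was 33.0% among probe sets with a head rhythm at other hours and 32.4% among those strong in both tissues by day, all 37 of which were tested in bodies. The count was 16 without replicate 1, 20 without replicate 2 and 20 with no filter on low means. Without the share over all probe sets in those settings, they cannot be set against the 4.08%.

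**Figure D5:**
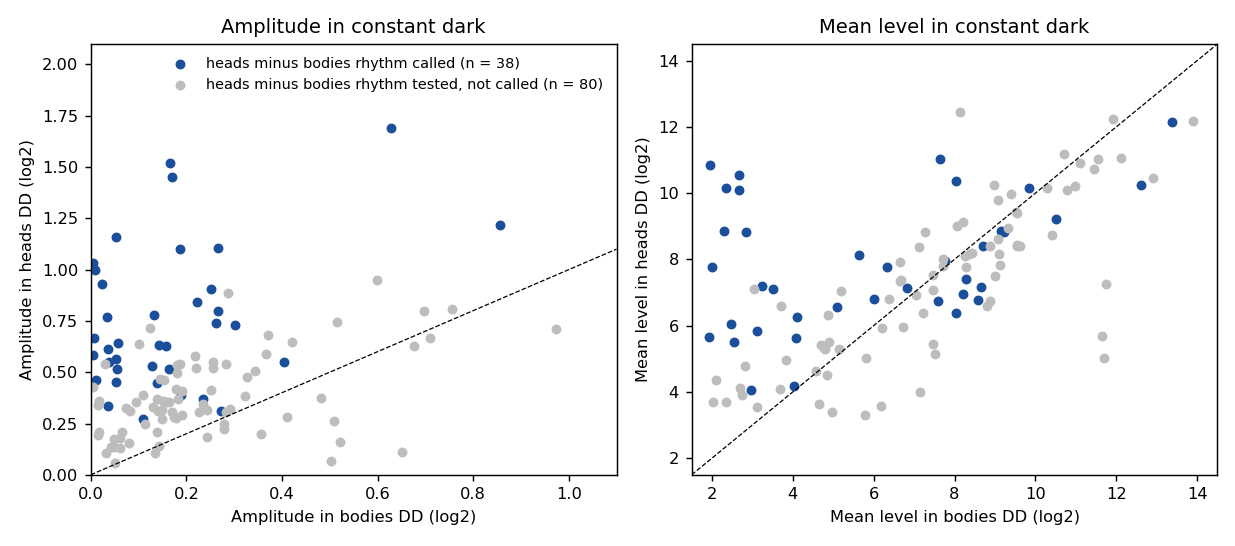
Heads against bodies in DD for the 118 members tested, with the line of equal values: left, fitted amplitude (log2), right, mean log2 value over 13 time points; dark points are the 38 members whose rhythm differed between tissues. On the left the 38 lie above the line, 16 of them with body signal under the filter, and on the right they lie on both sides of it.

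On the deposited values, mean levels in DD split the members evenly between the tissues. The level was higher in heads than in bodies for 56 of 118 members and lower for 54, where 32.0% and 60.5% of all probe sets tested were (limma, adjusted p under 0.05). A difference of at least 4-fold was found for 21 members higher in heads and 12 lower, against 9.93% and 17.1% of all. Of the 118, 92 had enough signal to be tested in bodies. The others passed the filter through heads alone, where the rule made them high, so the direction of their level difference is no result. Both counts of members higher in heads include such members. The median over members was 0.11 on the log2 scale and that over all probe sets -0.52. After quantile normalization of heads and bodies together these medians were 0.66 and 0.03, and 81 members were higher in heads and 31 lower, so directions of small differences depend on the scaling. Relative to the median of all probe sets the members' median stood 0.63 higher in heads under both scalings, which the choice of members fixed in part: each had a mean of at least 4 in heads in LD, and 31 a mean under 4 in bodies in LD.

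By measured values the largest head excess was in Ag.X.803.0_CDS_a_at, which read 8.91 to 11.86 (median 11.08) in heads in DD and 9.999 to 12.41 (median 11.29) in heads in LD. In bodies it read 1.91 to 2.00 in DD and 1.93 to 2.05 in LD, with no overlap and below the filter level. Since the body values are not above the filter level, the difference has only a lower bound: the head mean in DD, 10.85, lay 7.08 above the body filter on the log2 scale (limma's adjusted p for the measured level difference = 1.17e-18). Its rhythm in heads in DD had an amplitude of 1.03 and a peak at 1.05 h (limma's F-test, adjusted p = 0.00134), against 1.08 and 2.41 h in LD. The test of the heads minus bodies rhythm (limma's F-test, adjusted p = 0.00176) set it against body values below the filter level. That call is therefore no result about a rhythm in bodies. Ag.3L.777.0_CDS_at followed, at 8.77 to 10.81 in heads in DD, 9.20 to 11.23 in heads in LD, 2.21 to 2.86 in bodies in DD and 2.21 to 2.34 in bodies in LD. Its head amplitude was 0.61 in DD, with a peak at 5.05 h (limma's F-test, adjusted p = 0.018), and 0.73 with a peak at 2.55 h in LD, and over the alternatives on the log2 values that adjusted p reached 0.0683. It is one of the 16 called members with a later peak in DD.

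On the other side, Ag.2R.628.0_CDS_at and Ag.3L.4.0_CDS_at had the largest body excess, and neither was called rhythmic in heads in DD. Heads minus bodies in DD was -6.67 ± 0.22 for the first and -5.93 ± 0.12 for the second (SE, 13 time points, limma's adjusted p = 2.04e-13 and 8.14e-16). Ag.3L.4.0_CDS_at read 4.56 to 6.57 (median 5.71) in heads in DD and 5.46 to 7.89 (median 6.66) in heads in LD, against 11.04 to 12.08 in bodies in DD and 10.93 to 11.84 in bodies in LD. Its LD peak in heads rested on hours 8 and 12 (6.69 to 7.89) over hour 0 (5.46 to 6.25), and in DD those hours overlapped (4.58 to 6.57 and 4.56 to 5.996). The head amplitude was 0.31 in DD (adjusted p = 0.521, limma's F-test) and 0.74 in LD.

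Mean levels in heads differed between DD and LD in both directions. LD minus DD had a median of 0.10 on the log2 scale over the 121 (quartiles -0.28 and 0.75, range -5.73 to 2.38) and a median of -0.08 over all probe sets tested in heads, with 51 members higher in DD and 70 lower. Of the 121, 6 differed by at least 4-fold. The largest difference, picked out after values were seen, was in Ag.2R.473.0_CDS_at, with a mean of 11.04 in heads in DD and 5.30 in heads in LD, and of 7.63 in bodies in DD and 3.35 in bodies in LD. It was lower in LD in both tissues, and its time points in heads ran from 10.45 to 11.64 in DD and from 4.76 to 6.03 in LD. The regimes also differ in the control gaps given above, and each regime was a single course of collections, so regime and course cannot be told apart.

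Members shared clusters, as far as the probe set names show. The 121 names fall into 105 clusters by chromosome arm and cluster number, 12 clusters with 2 members and 1, 3R.557, with 5, so members are not all separate transcripts. The 62 called members fall into 58 clusters. The 5 of cluster 3R.557 peaked at 7.20 to 8.76 h in LD and at 1.80 to 8.32 h in DD, where none of them was called in heads. Over all 22 pairs within clusters the DD peaks lay a median of 1.74 h apart, and in the 4 pairs with both called they lay 0.75 to 3.69 h apart. These clusters held 21 further probe sets outside the 121, of which 13 were tested in heads in DD and 3 were called, where 8.92% of all probe sets tested in heads were. By name 67 members carry no extra suffix, 42 carry _a and 12 carry _s or _x, which is 55.4%, 34.7% and 9.92% of the members, against 72.1%, 19.7% and 8.21% of all Anopheles probe sets. The suffixes _s and _x mark probe sets that can also detect transcripts of other genes, and _a those that detect alternative transcripts of 1 gene. Of the 118 members tested in heads, 24 lay on arm 2L, 31 on 2R, 21 on 3L, 27 on 3R and 11 on X, and 4 were unplaced (UNKN). In percent these are 20.3, 26.3, 17.8, 22.9, 9.32 and 3.39, against 22.2, 29.4, 15.4, 20.2, 8.26 and 4.62 of all probe sets tested.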

How the data were processed

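The authors deposited 1 log2 value per probe set and array, made with GCRMA per the submitters' processing notes. No version, build or normalization batch is named there. Both arrays of a time point were averaged, and tests ran over the 13 time points of an arm. Anopheles probe sets were tested above a mean of 3.75 in heads and 3.78 in bodies, set by the P. falciparum probe sets. Rhythm was tested with limma 3.58.1 in R 4.3.3 (lmFit, eBayes, F-test of cosine and sine terms), adjusted by Benjamini-Hochberg over all probe sets tested (threshold 0.05), with heads and bodies paired by time point. Simulated rhythms with an amplitude of 0.5 were recovered for 82% in heads in DD, 81% in bodies in DD and 60% for the difference. False calls made up 5.73%, 6.35% and 6.06% of the calls. The simulation gave 200 probe sets a rhythm and all of them independent normal noise. Deviations shared by the probe sets of a time point, such as CT44, were not simulated, so real error rates can differ. The number of arrays limits the precision. The members, lists and tests were chosen with earlier results of these data known. Named are the first 2 of rankings by LD amplitude, by DD amplitude among called members, by smallest DD amplitude among the largest LD amplitudes, and by level difference in either direction. No probe sequences were used here.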

Additional observations from a re-analysis of the deposited data

Results flagged for a closer look

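The rhythm of 38 members in DD differed between heads and bodies by the test of the difference itself (limma's F-test on paired head minus body differences at 13 time points). That is 32.2% of the 118 tested, against 4.08% of all 8438 probe sets tested, and the share was 33.0% among probe sets with a head rhythm at other hours and 32.4% among those strong in both tissues by day. Of the 38, 16 passed the filter on low means through heads alone, where the rule made them high, so the direction of their difference is no result. The other 22 came from the 92 members tested in bodies, and the amplitude was larger in heads in 22 of 22. Choosing members as strong in heads and not in bodies favoured that direction in part. All 37 of the probe sets strong in both tissues by day were tested in bodies, so 32.2% and 32.4% do not compare like sets. By the reason for which bodies failed in LD, 17 of 31 members with a low body mean (28 of them tested), 17 of 72 with a low amplitude and 4 of 18 with a low R2 were among the 38. The first of these counts includes members that passed the filter through heads alone.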

How the results depend on the processing

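Across alternatives on the log2 values, 38 members with a rhythm difference between heads and bodies in DD became 20 with no filter on low means, 66 with arrays taken one by one and a replicate block, and 67 so without the block, and 16 to 38 with a replicate or time point left out. The 17 called in bodies became 7, 32 and 33 in the same settings, and 9 to 19. The 62 called in heads became 44 with no filter, 91 with the block, 91 without it, and 45 to 69. Counts under other settings, here and above, stand without the share over all probe sets and are no result about the members. Arrays taken one by one count the 2 arrays of a time point as separate, though the spread between them may be technical. The block changed none of the named probe sets' calls. Replicate numbers did not pair the samples: deviations of equal numbers in heads and bodies correlated with a median r of 0.01 (-0.29 to 0.14 over 13 time points). Taking ranks of the 13 time points left 0 calls in each of the 3 tests (limma), with 91, 35 and 68 members at an unadjusted p under 0.05 in heads, in bodies and for the difference, and adjusted p of at least 0.0884 for the named ones in heads. The unadjusted counts stand without the share over all probe sets. Ranks give each probe set the same total spread, which limits how large a rhythm can appear. The 0 calls therefore do not show that the rhythms were absent. Quantile normalization gave 31 members lower in heads in level (54 without it). The peak shift from LD to DD was -1.01 h after it and -1.27 to -0.73 h with a replicate or time point left out. With the stricter minimum applied to both tissues, an amplitude of at least 1 gave 33 members (29 of the 121 among them), R2 of at least 0.8 gave 111 (98 of the 121), and 1 replicate gave 114 to 127. Because a stricter minimum also lets more probe sets fail in bodies, new ones enter. Left-out replicates or time points gave 105 to 110 level differences between tissues, 54 to 57 higher and 49 to 54 lower in heads, and level medians of 0.06 to 0.16 for LD minus DD in heads. Leaving out single replicates or time points ended the difference call of Ag.2R.1155.0_CDS_at, Ag.3L.479.0_CDS_at and Ag.3L.777.0_CDS_at (adjusted p up to 0.0831, 0.171 and 0.0883) and, for Ag.3L.777.0_CDS_at, the call in heads (up to 0.0619). With no filter the call of Ag.2R.628.0_CDS_at in bodies was lost (0.0535). The cause was not tested. The signal over background limits members near 4 on the log2 scale.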
